A study of Mus musculus with 6 samples.

Results

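The 10 genes described here belong to the amino acid response controlled by the transcription factor ATF4: Atf4, Atf5, Ddit3, Trib3, Chac1, Sesn2, Asns, Phgdh, Psat1 and Psph. They were chosen by name, and every array probe whose RefSeq accession belongs to one of them was taken, which gave 14 probes of 56605 on the array and 10 genes of the 22911 that could be named. The livers came from 6 male mice 12 weeks old, of which 3 ate granulated regular chow alone (control) and 3 ate chow made of 75% regular food and 25% soy bean powder (soy), both for 28 days with food freely available. The strain and the hour of collection are not given in the sources used here, and the mice carried no stated allele or drug. RNA of 1 piece of the right hepatic lobe per mouse was hybridized to 1 Agilent array in 1 colour, and values are normalized signals on the log2 scale, so that a difference of 1 is a doubling of signal. Between 36366 and 38163 spots were well above background on the control arrays, and between 31308 and 32498 on the soy arrays. The 6 hepatocyte markers Alb, Apoa1, Ttr, Hnf4a, Cps1 and Tat were well above background on all arrays, as the label liver requires.

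When an amino acid runs short, uncharged transfer RNA activates the kinase GCN2, which phosphorylates the initiation factor eIF2 and slows translation in general, while translation of Atf4 rises. ATF4 protein then binds composite C/EBP-ATF elements together with C/EBP partners and drives genes of amino acid uptake and synthesis, transfer RNA charging and, under lasting stress, growth arrest. Other eIF2 kinases pass endoplasmic reticulum stress, heme shortage and viral RNA into the same route. In the liver, which takes up dietary amino acids from the portal blood, the response is known from diets short of protein or of an essential amino acid. ATF4 is set in large part at translation, which a microarray does not measure.

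To show the kind of site through which these genes are read, the RefSeq promoter windows (250 bases before to 50 bases after a start, build GRCm38.p6) were searched for the core of the C/EBP-ATF element, TGATGNAA, on both strands, where N is any base. All 10 genes matched the RefSeq table, with 12 windows in all, and 3 windows held the core, against 3.97% of all 32851 windows. The 3 genes are Asns, the textbook case of an amino acid response promoter, Chac1 and Trib3, and below they fall on both sides of the comparison. All 10 genes were chosen as ATF4 response genes, so their share of windows with the core describes that choice. Capitals mark the core or its reverse complement, TTNCATCA, and each sequence reads 5′ to 3′ along the strand of the gene.
Asns, 100 bases before the start (chr6:7693210-7693309, minus strand), core from 23 to 16 bases before the start: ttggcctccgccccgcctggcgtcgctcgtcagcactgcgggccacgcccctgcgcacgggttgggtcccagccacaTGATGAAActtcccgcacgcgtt
Chac1, 100 bases (chr2:119351003-119351102, plus strand), core from 193 to 186 bases before the start on the opposite strand: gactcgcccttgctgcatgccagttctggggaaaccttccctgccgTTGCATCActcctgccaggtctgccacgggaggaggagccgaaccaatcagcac
Trib3, 30 bases (chr2:152344028-152344057, minus strand), core at bases 15 to 22 of the transcript on the opposite strand: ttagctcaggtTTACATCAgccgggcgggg
A match is a description of these letters and not a bound site, and no match in the other windows says only that the core lies in none of these stretches.

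The comparison of soy with control livers addressed whether the soy-enriched chow went with another level of these genes. The chows differed in lipid and carbohydrate as well as in protein, and the parts of these cannot be told apart. None of the 10 genes passed on any probe, where passing means an adjusted p under 0.05 from limma together with a fold change above 1.5 or under 0.66. Among all genes with a symbol 0.532% passed on at least 1 probe (0.458% by the brightest probe), so that a count of 0 of 10 does not set these genes apart. By the brightest probe of each gene, 7 had a higher and 3 a lower mean in soy, with a median log2 change of 0.20 against -0.0057 over all genes. That median was 0.32 without soy 1, 0.13 without soy 3, 0.12 with the slide as a fixed block, 0.028 within slide 1 and 0.33 within slide 3. A gap between the values of the diets was seen for 2 of the 10 genes (1 higher, 1 lower), while 20.5% of all genes showed one (9.68% higher, 10.8% lower). At an unadjusted p under 0.05 there were 3 genes, Psat1 and Psph higher and Chac1 lower in soy, against 14.2% of all genes (7.21% higher, 7.02% lower). The largest differences were those of the synthesis enzymes Psat1 and Asns, both higher in soy, and of the feedback inhibitor Trib3, lower in soy.

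**Figure D1:**
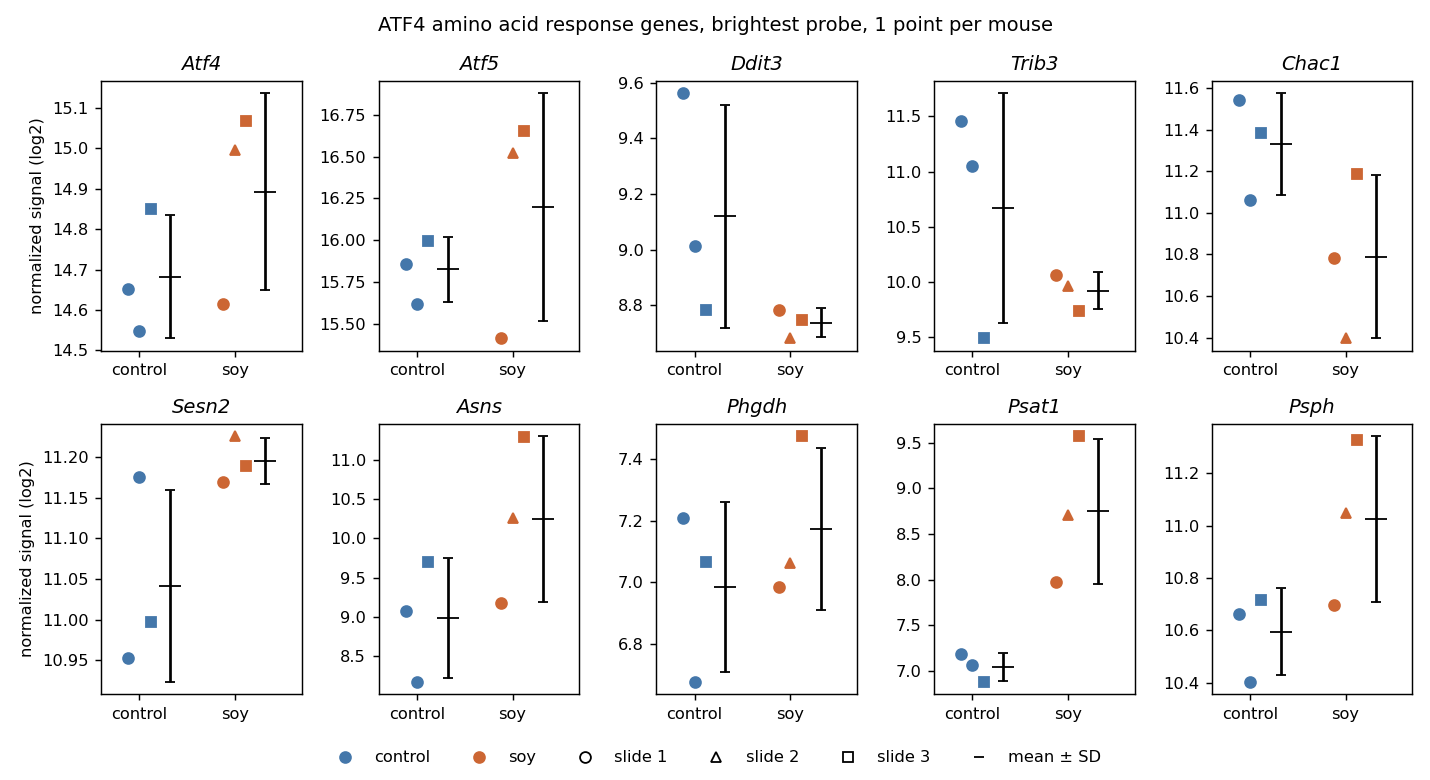
Normalized signal (log2) of the brightest probe of each gene in the 3 control and 3 soy livers, 1 point per mouse with the marker giving the slide, beside the mean and SD of each group; each panel has its own axis, which does not start at 0. The soy points of Psat1 (7.98 to 9.57) stand clear of its control points (6.88 to 7.19), and those of Ddit3 almost touch.

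Among the transcription factors, Atf4 (NM_009716) encodes the central activator. Its signal was 14.65, 14.55 and 14.85 in control 1, 2 and 3 and 14.61, 14.996 and 15.07 in soy 1, 2 and 3. Soy 2 and soy 3 lay above all controls, and soy 1 lay among the controls. The change was 0.21 (SE 0.15, adjusted p = 0.646, limma), and a dimmer probe gave 0.22 (SE 0.22), also with overlap. On that dimmer probe control 3 was the highest array (12.05). Atf5 (NM_030693), a relative that is likewise favoured in translation when eIF2 is phosphorylated, gave 15.86, 15.62 and 15.998 in control and 15.41, 16.52 and 16.65 in soy livers. Here soy 1 was the lowest of all 6 arrays and soy 2 and soy 3 the highest, so that the soy SD (0.68) was wider than that of the controls (0.19). The change of Atf5 was 0.37 (SE 0.31, adjusted p = 0.699), and its second probe followed the same order of soy arrays with 0.41 (SE 0.34).

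Ddit3 (NM_007837) encodes CHOP, the factor that carries ATF4 signalling towards cell death. It gave 9.56, 9.01 and 8.78 in control and 8.78, 8.68 and 8.75 in soy livers. All soy values lay below all control values, but soy 1 and control 3 differ only past the second decimal. The change was -0.38 (SE 0.19, adjusted p = 0.501), and without control 1 it was -0.16 (adjusted p = 0.717). Trib3 (NM_175093), a pseudokinase induced by ATF4 and CHOP that inhibits them in turn, gave 11.46, 11.05 and 9.49 in control and 10.07, 9.96 and 9.74 in soy livers. Control 1 and control 2 stood above every soy array, whereas control 3 was the lowest of all. Its change was -0.75 (SE 0.45, adjusted p = 0.588), and without control 3 it was -1.34 with an adjusted p of 0.0470, which passed. Without control 1 it was -0.35 (adjusted p = 0.817), and the other alternatives lay between these adjusted p values.

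Chac1 (NM_026929), an enzyme that breaks down glutathione and a late target of the route, gave 11.54, 11.06 and 11.38 in control and 10.78, 10.40 and 11.19 in soy livers. Soy 1 and soy 2 lay below all controls and soy 3 lay above control 2. The change of -0.54 (SE 0.21, 95% interval -1.04 to -0.045) had an adjusted p of 0.394. Sesn2 (NM_144907), a leucine sensor that restrains the growth kinase complex mTORC1, was the steadiest of the 10, with a range of 0.27 over all arrays. Its values were 10.95, 11.18 and 10.997 in control and 11.17, 11.23 and 11.19 in soy livers. Control 2 fell among the soy arrays, and the change was 0.15 (SE 0.10, adjusted p = 0.619, 95% interval -0.081 to 0.39).

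Asns (NM_012055) encodes asparagine synthetase, which makes asparagine from aspartate and glutamine. It had the widest range of the 10 genes, 3.13, with 9.07, 8.17 and 9.70 in control and 9.18, 10.26 and 11.30 in soy livers. Soy 2 and soy 3 exceeded all controls and soy 1 lay between control 1 and control 3. The change was 1.27 (SE 0.56, adjusted p = 0.445), a 2.41-fold higher mean whose 95% interval (-0.027 to 2.56) just reached below 0. A dimmer Asns probe, well above background on control 1, control 3, soy 2 and soy 3, gave 0.54 (SE 0.38).

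The serine branch starts with Phgdh (NM_016966), the dehydrogenase that draws 3-phosphoglycerate out of glycolysis. Phgdh lay near the limit of detection, well above background on control 1, control 3 and soy 3 only. Its values were 7.21, 6.68 and 7.07 in control and 6.98, 7.06 and 7.47 in soy livers, which overlapped, and the change was 0.19 (SE 0.18, adjusted p = 0.744).

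Psat1 (NM_001205339), the aminotransferase of the second step, was well above background on all 6 arrays. Its brightest probe gave 7.19, 7.06 and 6.88 in control and 7.98, 8.70 and 9.57 in soy livers. Every soy value was above every control value, and the soy SD (0.80) was wider than the control SD (0.15). The change of 1.71 (SE 0.35, 3.26-fold, 95% interval 0.89 to 2.52) had an adjusted p of 0.115 and did not pass. In the alternative that took the scanner's processed signal and aligned arrays at their 75th percentile, a change of both signal and scaling, it did (2.82, adjusted p = 0.0115), whereas the mean of both Psat1 probes gave 0.50 (adjusted p = 0.653), and these are the ends of the range of adjusted p over all alternatives. A second Psat1 probe for the same transcript gave 6.48, 8.73 and 6.59 in control and 6.33, 6.59 and 6.73 in soy livers. It was well above background on control 2 alone and on no soy array. The change was -0.71 (SE 0.54, 95% interval -1.98 to 0.55, adjusted p = 0.669), with overlap. That is the opposite direction to the brighter probe, and control 2 alone carries the difference.

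Psph (NM_133900), the phosphatase that releases free serine, gave 10.66, 10.40 and 10.72 in control and 10.70, 11.05 and 11.33 in soy livers. Soy 2 and soy 3 lay above all controls and soy 1 just below control 3. Its change was 0.43 (SE 0.17, adjusted p = 0.406, 95% interval 0.026 to 0.83).

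**Figure D2:**
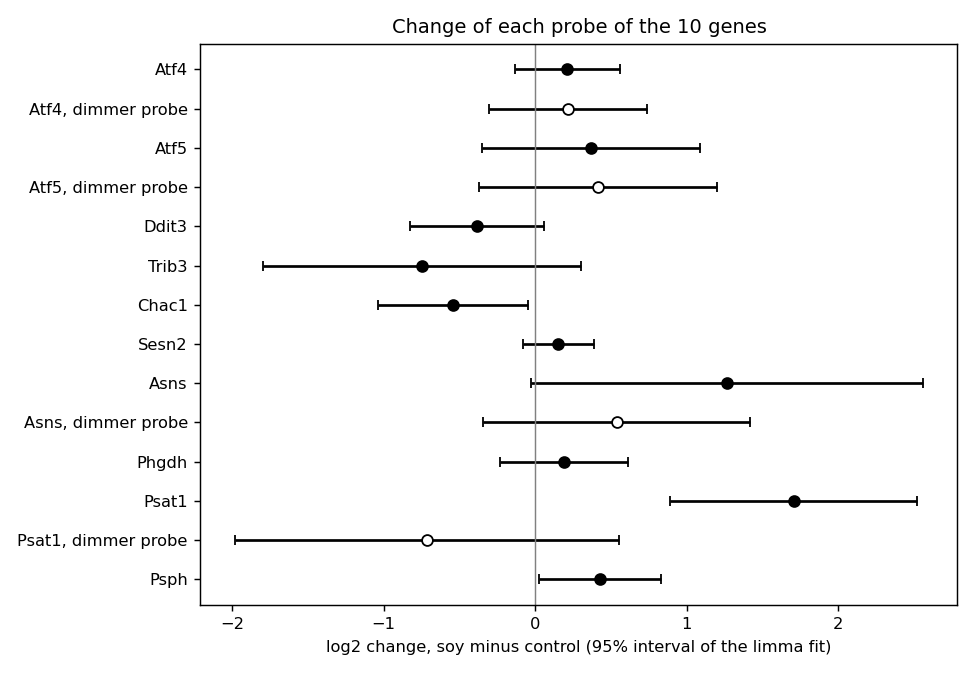
Log2 change (soy minus control) of all 14 probes with the 95% interval of the limma fit, filled for the brightest probe of a gene and open for a dimmer one. The interval of the brighter Psat1 probe, 0.89 to 2.52, lies farthest from 0, and both Atf4 probes (0.21 and 0.22) sit close together, while the Psat1 probes differ in sign.

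The arrays lie on 3 slides. Slide 1 carries control 1, control 2 and soy 1, slide 2 carries only soy 2, and slide 3 carries 1 mouse per diet, control 3 and soy 3. By the brightest probes, soy 3 was the highest array and soy 2 the next for Atf4, Atf5, Asns, Psat1 and Psph. Control 1 was the highest for Ddit3, Trib3 and Chac1. Of the genes with a dimmer probe, only Atf5 kept this order on it. Control 3 was highest for Atf4 (12.05) and control 2 for Psat1 (8.73). For Asns soy 3 stayed highest, but control 3 (7.530) lay just above soy 2 (7.520). Within slide 1 the change was 0.015 for Atf4, 0.56 for Asns, 0.85 for Psat1 and 0.16 for Psph. Within slide 3 it was 0.22, 1.599, 2.69 and 0.61 for the same genes. The direction of these brightest probes was thus the same on both slides and the difference larger on slide 3. The dimmer probes of Atf4 and Psat1, but not that of Asns, differed in sign between the slides. For Atf4, soy 1 (11.76) lay above control 1 and control 2 (11.12 and 11.58), and soy 3 (11.97) below control 3 (12.05). For Psat1, soy 1 (6.33) lay below control 1 and control 2 (6.48 and 8.73), and soy 3 (6.73) above control 3 (6.59). Atf5 had opposite signs on these slides, with -0.33 within slide 1 and 0.66 within slide 3, and so did Trib3, with -1.19 and 0.25. For Chac1 the values were -0.52 and -0.20, and for Ddit3 -0.50 and -0.037. With the slide as a fixed block, where soy 2 adds nothing to the estimate, Psat1 differed by 1.64 (adjusted p = 0.304) and Asns by 1.00 (adjusted p = 0.409). In the fits with 1 array left out, the change ran from 1.30 (without soy 3) to 2.09 (without soy 1) for Psat1 and from 0.74 (without soy 3) to 1.80 (without soy 1) for Asns. Atf4, with 0.12 to 0.35, and Atf5, with 0.14 to 0.76, had their lowest values without soy 3 and their highest without soy 1 as well. Psph ran from 0.28 to 0.59, Sesn2 from 0.11 to 0.22, Phgdh from 0.035 to 0.30, with the lowest value without control 2, and Chac1 from -0.74 to -0.35, the latter without soy 2.

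**Figure D3:**
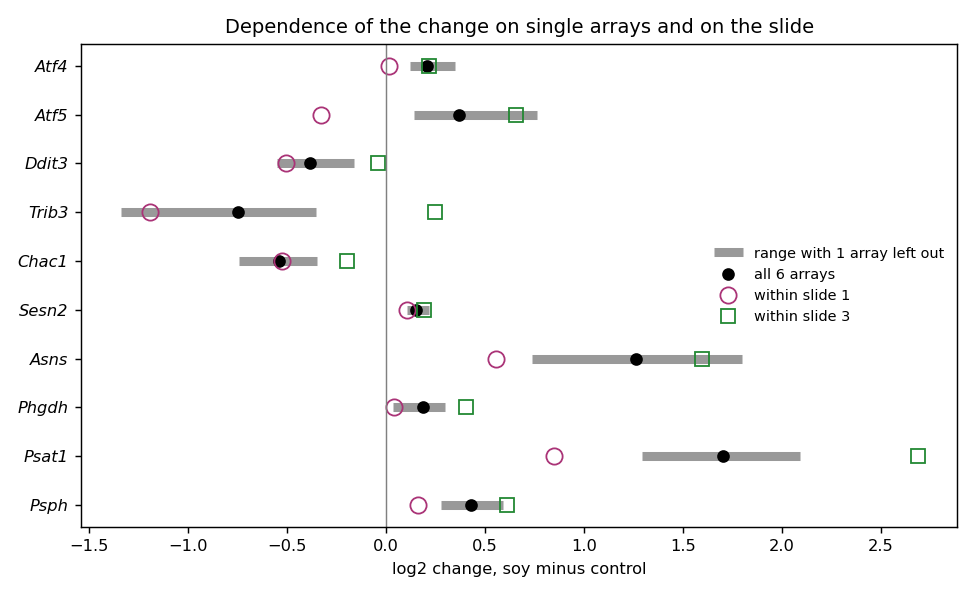
Log2 change (soy minus control) of each gene by its brightest probe. It is shown over all 6 arrays (filled point), within slide 1 (open circle), within slide 3 (open square) and over the fits with 1 array left out (bar). Psat1 and Asns stay above 0 throughout, whereas the open markers of Atf5 and Trib3 fall on opposite sides of 0.

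Upstream of ATF4, none of the 9 genes of the eIF2 arm passed, and 1 had an unadjusted p under 0.05, a share near the 14.2% of all genes. That gene is Impact, which restrains GCN2 by competing for its activator GCN1. Its signal was 10.42, 9.90 and 10.17 in control and 10.82, 10.72 and 11.10 in soy livers. All soy arrays were above all controls, and the change was 0.72 (SE 0.16, adjusted p = 0.143). In the processed-signal alternative, which also changes the scaling, it passed (0.71, adjusted p = 0.0323, up to 0.333 over the alternatives). The GCN2 gene itself, Eif2ak4, differed by 0.15 (SE 0.090), also without overlap (soy minus control, as for all genes below). Gcn1 differed by 0.030 on its brightest probe, with the opposite sign without control 3 and for the mean of its 4 probes. Its dimmer probes gave -0.17 with overlap, -0.27 without overlap (adjusted p = 0.430, limma) and 0.026 near background. The other kinases Eif2ak1 (heme), Eif2ak2 (double-stranded RNA) and Eif2ak3 (endoplasmic reticulum stress) differed by 0.089, 0.093 and -0.24, Eif2ak1 with the opposite sign without control 1. Eif2ak2 ran from 0.022 to 0.16 and Eif2ak3 from -0.35 to -0.16 with 1 array left out. The substrate Eif2s1 differed by -0.15, and the phosphatase subunits Ppp1r15a and Ppp1r15b by -0.13 and 0.013, the latter with the opposite sign under the 75th-percentile shift, under cyclic loess, without control 1 and without soy 1. Ppp1r15a ran from -0.26 to -0.053 with 1 array left out.

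Of the 6 partner factors none passed. Cebpb, which pairs with ATF4 at the composite element, gave 15.06, 14.78 and 14.42 in control and 14.21, 13.71 and 14.35 in soy livers. The groups did not overlap, and it differed by -0.66 (SE 0.21, adjusted p = 0.292). Jdp2, a repressor of the same leucine zipper family, differed by -0.67 (SE 0.18, adjusted p = 0.218), likewise without overlap. The changes were -0.33 for Atf3, 0.18 for Cebpg, 0.26 for Nupr1 and 0.25 for Nfe2l2, the gene of the oxidative stress factor NRF2. With 1 array left out, Cebpg ran from 0.12 to 0.30, Nupr1 from 0.15 to 0.43 and Nfe2l2 from 0.11 to 0.35. The family relatives of the 10 genes did not pass either, with Trib1 at -0.38, Trib2 at -0.12 (the opposite sign under the 75th-percentile shift), Sesn1 at -0.11 (the opposite sign without control 1), Sesn3 at -0.12 and Chac2 at 0.13. Trib1 ran from -0.48 to -0.19, Trib2 from -0.18 to -0.019 and Chac2 from 0.080 to 0.21 with 1 array left out.

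Of the genes that ATF4 is known to drive, the 13 for transfer RNA charging had the most uniform direction, 12 with a higher mean in soy and a median log2 change of 0.17, where 48.8% of all genes had a higher mean. None passed, and 5 had an unadjusted p under 0.05, against 14.2% of all genes. Tars, the threonyl-tRNA synthetase, gave 13.40, 13.19 and 13.49 in control and 13.70, 13.81 and 14.19 in soy livers, without overlap, and it differed by 0.54 (SE 0.15, adjusted p = 0.228). Aars, Mars1 and Gars, for alanine, methionine and glycine, differed by 0.44, 0.37 and 0.35, and values did not overlap for Mars1 and Gars. Eprs, for glutamate and proline, was the gene with a lower mean, and its 3 dimmer probes had a higher one. Wars, for tryptophan, counted as higher at 0.0063, but its dimmer probe gave -0.045. Its sign was opposite in 5 alternatives, the mean of its probes among them. With the 75th-percentile shift 11 of the 13 genes had a higher mean, and without control 1, 10 did. Their median was 0.10 without soy 3 and 0.26 without soy 1.

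The 9 amino acid transporters went both ways, and again none passed. Slc38a2, a sodium-coupled carrier of small neutral amino acids, gave 14.37, 13.69 and 13.51 in control and 12.69, 12.55 and 12.84 in soy livers. All soy arrays lay below all controls, and the change was -1.16 (SE 0.22, adjusted p = 0.0907); it passed when only probes well above background were tested (adjusted p = 0.0469) and in the alternative with processed signal and 75th-percentile scaling (adjusted p = 0.0236), with up to 0.307 over the alternatives. Slc1a4, which carries alanine, serine and cysteine, differed by -0.94 (SE 0.23, adjusted p = 0.171), and the glycine carrier Slc6a9 by 0.95 (SE 0.30, adjusted p = 0.291), both without overlap. Slc1a4 passed in that same alternative (-0.98, adjusted p = 0.0349, up to 0.368 over the alternatives). Slc6a9 ran from 0.59 to 1.28 with 1 array left out. Slc7a5, the carrier of large neutral amino acids, differed by -0.15 (SE 0.099). No array measured Slc7a11 or Slc7a3 well above background. Of the 15 other targets none passed. The hormone gene Fgf21 gave 6.61, 6.39 and 7.61 in control, where 1 array was well above background, and 7.65, 8.24 and 9.19 in soy livers, where all 3 were. Its groups did not overlap, and it differed by 1.49 (SE 0.43, adjusted p = 0.241). Ddit4, an inhibitor of mTORC1, differed by -0.92 (SE 0.54), but by -0.22 without control 1, which at 13.49 stood above the other controls (11.56 and 11.24). Herpud1, a gene of protein clearance from the endoplasmic reticulum, differed by -0.62 (SE 0.29) and Bbc3, which encodes the death factor PUMA, by 0.59 (SE 0.16). Herpud1 ran from -0.86 to -0.34 with 1 array left out. Stc2 and Adm2 were at background level throughout.

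**Figure D4:**
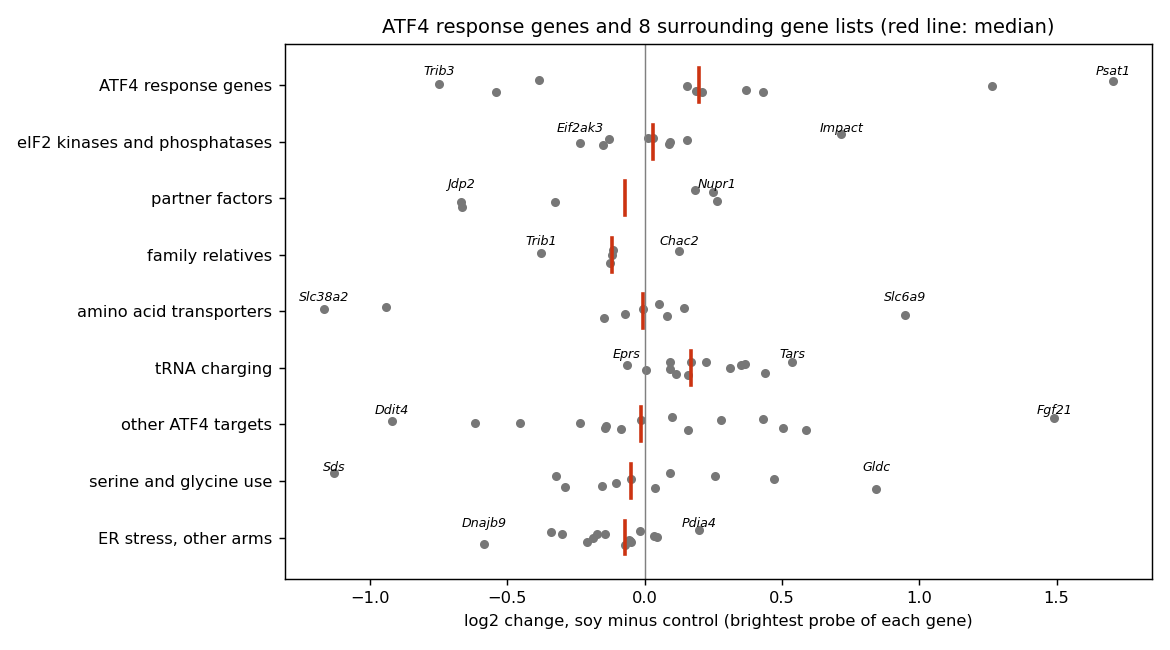
Log2 change (soy minus control) of the brightest probe of each gene in the ATF4 response set and in 8 surrounding lists, with the highest and the lowest gene of each named and the median as a red line. The transfer RNA charging genes lie almost wholly to the right of 0 (median 0.17), while the transporters spread from -1.16 (Slc38a2) to 0.95 (Slc6a9).

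Serine and glycine use, downstream of Psph, held 11 genes with a median of -0.050, and none passed. That median had the opposite sign without control 2 (0.019), soy 1 (0.026) or soy 3 (0.029). Sds, the dehydratase that turns serine into pyruvate, gave 14.93, 15.02 and 13.96 in control and 13.57, 13.43 and 13.52 in soy livers. Its soy values lay below all controls, with a change of -1.13 (SE 0.26, adjusted p = 0.151), and it passed without control 3 (-1.47, adjusted p = 0.0175) and with processed signal and 75th-percentile scaling (-1.14, adjusted p = 0.0475), with up to 0.349 over the alternatives. Gldc, of the glycine cleavage system, differed by 0.84 (SE 0.25, adjusted p = 0.260), Sdsl by -0.32 (SE 0.23; -0.037 without control 1) and Shmt1, which converts serine to glycine, by -0.29 (SE 0.13). The 15 genes of the other arms of endoplasmic reticulum stress served as a contrast, and none passed. Their median change was -0.069, with 3 genes higher and 12 lower. It was -0.15 without control 1, -0.16 without control 2 and -0.15 with the slide as a fixed block, where 1 gene was higher. Dnajb9, a chaperone induced by XBP1, differed by -0.58 (SE 0.22, adjusted p = 0.368), Creld2 by -0.34, Edem1 by -0.30 and Xbp1 by -0.21. With 1 array left out the smallest differences were -0.34 for Dnajb9, -0.21 for Creld2 and -0.069 for Xbp1. Over the 8 surrounding lists, 0 of 83 genes passed (0.532% of all genes), 19 had an unadjusted p under 0.05 (14.2%), 23 had no overlap between the groups (20.5%) and the median change was -0.0070.

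In a whole liver sample, fewer cells of a type and less RNA per cell cannot be told apart, so markers of other tissues were measured beside these genes. All 6 pancreas markers had a lower mean in soy, and 3 of them, Cela1, Cela2a and Ctrb1, had no overlap, where 10.8% of all genes had none and were lower; none passed. Their summed signal (linear scale) was 31776, 48786 and 40251 in control 1, 2 and 3 and 22961, 28799 and 21119 in soy 1, 2 and 3, with Cela1 the brightest gene. It was lowest in soy 3, the array on which Asns and Psat1 were highest. Signals of Cpa1, Prss1 and Pnlip overlapped between the diets. They were called well above background on 2 control arrays each and on no soy array, but the soy arrays had fewer such calls over all spots as well. The part of these markers in the results for the ATF4 response genes was not tested. The Kupffer cell sum (brightest gene Cd5l) was lowest in control 1 (23709) and highest in soy 3 (50515), with overlap. The difference between the group means of its log2 sums (soy minus control) was 0.23. Of its 6 genes 5 had a higher mean in soy, but only 3 did without control 1 or without soy 3. Their median change was 0.24, against 0.018 without control 1 and 0.093 without soy 3. The difference between mean log2 sums (soy minus control) was -0.14 for hepatocyte markers (brightest gene Alb), 0.13 for endothelial (Clec4g), -0.11 for stellate (Dcn) and 0.099 for cholangiocyte markers (Spp1), of which Epcam was undetected throughout. Such a sum follows its brightest genes. By single genes, 5 of the 6 hepatocyte markers had a lower mean in soy, among them Cps1 (-0.47, no overlap) and Tat (-0.76, overlap), and so had 5 of the 6 stellate markers, among them Col1a1 (-0.997, no overlap). Col1a1 gave 9.91, 8.53 and 8.95 in control and 7.85, 8.06 and 8.49 in soy livers, so that control 1 stood above the other controls. Of the endothelial markers 3 had a higher and 3 a lower mean. None of these genes passed, and the part of these markers was not tested either. Hba-a1, the brightest of the blood markers, gave 17.21, 16.88 and 17.32 in control and 16.91, 18.04 and 17.23 in soy livers. Its change was 0.26 (SE 0.28, adjusted p = 0.774), with overlap, and soy 2 alone stood above all controls. Alas2, S100a8 and S100a9 differed by 0.42, 0.58 and 0.62 and Cd3e by -0.11, all with overlap. None of them passed, and their part was not tested.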

How the data were processed

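The authors scanned 1-colour Agilent arrays, and per the file headers the deposited median intensities (spots and local background) and processed intensities come from Feature Extraction 11.5.1.1. The authors also deposited log2 values of the same arrays whose quantiles nearly coincide. The paper's methods name the median signals, limma and Benjamini-Hochberg adjustment. Here normexp (offset 50) served as background correction of the median signals, control spots were then taken out, arrays were quantile normalized and log2 transformed, outlier spots were left out, and spots of a probe were averaged. All 56605 probes were fitted for soy against control with limma 3.58.1 in R 4.3.3 (lmFit, eBayes) and adjusted together; tables and plots used Python 3.11.15, pandas 2.3.3 and matplotlib 3.10.9. Symbols came from RefSeq accessions (32994 probes, 58.3%) of GRCm38.p6, whereas the array design names mm9, so positions are given only for the RefSeq promoter stretches, in GRCm38.p6.

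Each gene is given by its brightest probe. The text names all members and all genes of the 3 short lists. Of each longer list it names up to 4 genes with the largest change among detected ones. Of the markers it names the brightest, the undetected and some others. The genes and lists were chosen with earlier results of these data known. The surrounding gene Pycr1 had no matched probe, so it enters the promoter search but no comparison of signals. The result of 1 marker gene is not reported here. With 3 mice per group, the number of arrays limits the precision. Replicate numbers do not pair the mice by any label. The fit was tested on simulated data. The alternatives are given in the closing section.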

Additional observations from a re-analysis of the deposited data

How the results depend on the processing

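The count of ATF4 response genes that passed was 0 in the main analysis and in 18 of 20 alternatives. It was 1 with the processed signal under 75th-percentile scaling, which changes signal and scaling at once (Psat1, 2.82, adjusted p = 0.0115), and 0 to 1 with 1 array left out, the 1 being Trib3 without control 3. All 10 genes kept their direction in every fit with a test. For the 83 surrounding genes the count was 0 in 17 of 20 alternatives, 8 with that setting (Impact, Sds, Slc1a4, Slc38a2, Mthfd1l and, on probes at background level on every array, Slc7a11, Stc2 and Trib2), 1 with only probes well above background, and 0 to 1 with 1 array left out. The count of all probes that passed, 198 (59.6% higher in soy), was 77 with an offset of 16, 13138 with the processed signal under 75th-percentile scaling (90.8% higher), 299 with the 75th-percentile shift, 497 with only probes well above background, 25 with the slide as a fixed block (48% higher), and 25 to 203 with 1 array left out (25 without soy 2, 27 without soy 3, 50 without soy 1). The 75th-percentile shift moved the median of all genes to 0.11. With the replicate number as a block 78 probes, 0 of the 10 genes and 0 of the 83 passed; same-numbered deviations correlated at 0.12, -0.061 and 0.097, so the numbers were not taken as pairs. Phgdh was too dim for a value under the filter on dim probes. The cause of these shifts was not tested.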

Other observations

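Profiles over the arrays were compared by the brightest probe of each gene, among 13497 genes well above background on all 6 arrays. Those most like Atf4 were Gfra2 (Pearson r = 0.993), Rgs2 (0.991) and Sars (0.991), the seryl-tRNA synthetase, and 147 genes exceeded 0.9. The dimmer Atf4 probe has another order of arrays. For Asns, the widest ranging of the 10 genes, the closest were Slc22a28 (0.997), Nus1 (0.992) and Hap1 (0.992), with 220 genes over 0.9. These are descriptions over 6 arrays that share slides and a normalization, chosen as the highest of many, and they carry no test.

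The core TGATGNAA was found in 15 of 78 RefSeq promoter windows of the surrounding genes, those of Aars, Gars, Iars, Tars and Yars among the transfer RNA charging genes, against 3.97% of all windows. The count includes Pycr1, which had no matched probe. These lists hold known ATF4 targets, so the share describes how they were chosen.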
